A study of Mus musculus with 6 samples.

Results

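The translation initiation and elongation factor genes were taken as every entry of the expression table whose name begins with Eif or Eef followed by a digit, apart from the Argonaute genes that the table still lists as Eif2c. The pattern matched 66 names, and without the 4 Eif2c names it left 62 genes of the 23235 table entries. The RNA came from E14Tg2a, a mouse embryonic stem cell line, at passages 37 to 40. In 3 samples the pluripotent cells (ESCs) were kept with leukemia inhibitory factor (LIF), which holds them in self-renewal. In the other 3 samples monolayers without LIF were given 1 µM retinoic acid (RA) for 48 h to direct them towards the neuronal lineage (NCs). Both groups were grown in medium with 10% serum, the labels name no allele that sets them apart, and a single line was used. Removal of LIF and addition of RA went together, so their parts in any difference cannot be told apart.

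For protein synthesis, initiation factors bring the initiator tRNA, the small ribosomal subunit and a capped mRNA together, and the start codon is then found by scanning. eIF2 carries the initiator tRNA, eIF2B recharges eIF2 with GTP, eIF3 holds the small subunit, and the eIF4 factors bind the cap and unwind the mRNA leader. Elongation factors then deliver each aminoacyl-tRNA and move the ribosome along. In embryonic stem cells protein synthesis is known to be low for their growth rate and to increase when they differentiate, and control by mTOR and by eIF2alpha phosphorylation acts largely on the proteins rather than on mRNA level.

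The table held 1 FPKM value per gene and condition (fragments counted per length of transcript and per sequencing depth), which the authors made from the 3 samples of each condition together. FPKM is a level per transcript length, so levels of different genes can be set beside each other. No spread between samples can be computed from such values, so none of the differences below was tested and each is a difference between 2 pooled values. Genes were compared where FPKM was at least 1 in either condition, which kept 60 of the 62 factor genes and 13293 table entries in all. The exceptions were Eif4e1b, an oocyte form of the cap-binding protein, at 0.213 FPKM in ESCs and 0.107 in NCs, and Eef1a1, the main carrier of aminoacyl-tRNA to the ribosome. Eef1a1 was listed at 0 in both conditions with a status code for too many fragments at the locus, so this 0 is a missing estimate of a gene that all dividing cells use. It was 1 of 3 table entries without an estimate.

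Markers were read first, because the values are from bulk RNA, in which fewer cells of a type and less RNA per cell cannot be told apart. All 6 pluripotency markers were lower in NCs, with a summed level of 1773 FPKM in ESCs and 154 in NCs. All 5 RA-response genes were higher, from a sum of 7.36 to 710.4 FPKM, and so were all 4 neural progenitor markers, from 18.3 to 108.2 FPKM. Of 6 neuronal markers 5 were lower in NCs, and the sum of the 6 was 194.0 FPKM in ESCs and 22.9 in NCs. The defining marker Dcx was higher but near 0 in both (0.0140 and 0.334 FPKM). Some of these markers were already high in ESCs, such as Stmn2 (142.2 and 11.8 FPKM) and Tubb3 (33.4 and 7.54). The set therefore cannot show how many neurons were present, and the NC name stands here only for RA-treated cells. Mesoderm markers summed to 1.93 and 6.73 FPKM, endoderm markers to 7.15 and 18.4, trophoblast markers to 1.55 and 1.09 and fibroblast markers to 19.1 and 38.3 in ESCs and NCs. Of 4 mesoderm markers 2 were lower and 2 higher, and 3 were below 1 FPKM in both conditions. The larger mesoderm sum in NCs was mostly Meox1 (0.253 and 5.43 FPKM). All 4 endoderm markers were higher, as were 2 of 3 trophoblast markers and 2 of 4 fibroblast markers, the rest being lower. The endoderm marker Gata4 was only slightly higher (3.30 and 3.69 FPKM), and the higher trophoblast markers, Cdx2 and Elf5, were below 1 FPKM in both conditions. The part of cell composition in the values below was not tested.

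Several factor genes occur as close copies whose levels the results turn on, so a stretch of coding sequence is shown for 2 such pairs. Eif1 and Eif1b encode near-identical proteins that keep the scanning ribosome from stopping at a wrong codon, and over the coding sequence they shared 81.1% of aligned bases. The stretches are from GENCODE transcripts on GRCm38, at chr11:100320666-100320725 (plus strand) for Eif1 and chr9:120494107-120494166 (plus strand) for Eif1b, and capitals mark the 11 of 60 bases that differ.
Eif1: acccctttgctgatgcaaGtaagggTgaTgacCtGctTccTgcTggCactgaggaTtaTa
Eif1b: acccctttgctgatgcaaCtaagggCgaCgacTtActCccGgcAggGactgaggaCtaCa

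Eif4a1 and Eif4a2 encode the RNA helicases that unwind the mRNA leader, and 77.8% of their aligned coding bases were identical. Their stretches lie at chr11:69670688-69670747 (minus strand) and chr16:23108719-23108778 (plus strand), and capitals mark the 13 of 60 bases that differ.
Eif4a1: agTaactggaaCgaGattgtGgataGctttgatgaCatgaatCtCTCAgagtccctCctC
Eif4a2: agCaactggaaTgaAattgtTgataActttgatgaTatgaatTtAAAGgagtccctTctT

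Reads that match several genes were divided among them by the authors' software, so the words that genes share are given. Of all 50-base words in the transcripts of a gene, 65.3% also occurred in transcripts of another gene for Eif4a1, 14.0% for Eif4a2, 21.4% for Eif1 and 4.20% for Eif1b. The largest share was that of Eif3j2, at 91.8%, with its copy Eif3j1 among the genes that shared them. Eef1g stood at 64.3% and Eif4ebp3 at 65.5%, and their levels are uncertain where reads were split among copies.

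As a group the factor genes were lower in NCs. Of the 60 genes compared, 45 (75%) were lower and 15 higher, against 52.0% lower among all genes, and the median log2 ratio of NC to ESC was -0.32 for the factor genes and -0.03 for all genes. Their summed level was 14922 FPKM in ESCs and 10965 in NCs, 1.36-fold lower, without Eef1a1. This was 1.94% of all FPKM in ESCs and 1.74% in NCs. Most differences were small: past 2-fold, 1 factor gene (Eif4g3) was higher, where the background is 12.5% of all genes, and 2 (Eif4a2 and Eif2s2) were lower, where it is 10.6%. Past 1.5-fold, 4 (6.67%) were higher and 8 (13.3%) lower, both below the 20.6% and 19.4% of all genes.

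The scale of the comparison matters for these small ratios, since all FPKM summed to 770592 in ESCs and 628679 in NCs, a 1.23-fold difference. When both columns were brought to the same sum, every log2 ratio was 0.29 higher, 33 factor genes were lower and 27 higher, and 12 turned direction (Eef1a2, Eif2b1, Eif2b2, Eif2b4, Eif2b5, Eif3b, Eif3e, Eif3f, Eif3g, Eif4e, Eif4e2 and Eif6). On that scale Eif4g3 and Eif1b were past 2-fold higher and Eif4a2 past 2-fold lower, while Eif2s2 (-0.91) was not, and 4 genes were past 1.5-fold in each direction. All other genes shifted equally, so the median was then 0.26 for all genes and -0.022 for the factor genes. The shares of all genes lower or past these limits were not counted on that scale. Centring on the median gene (a shift of 0.05) or on the upper quartile (0.05) turned none. A ratio between 2 genes of the same condition does not depend on this scale, and such ratios are given where they help.

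**Figure D1:**
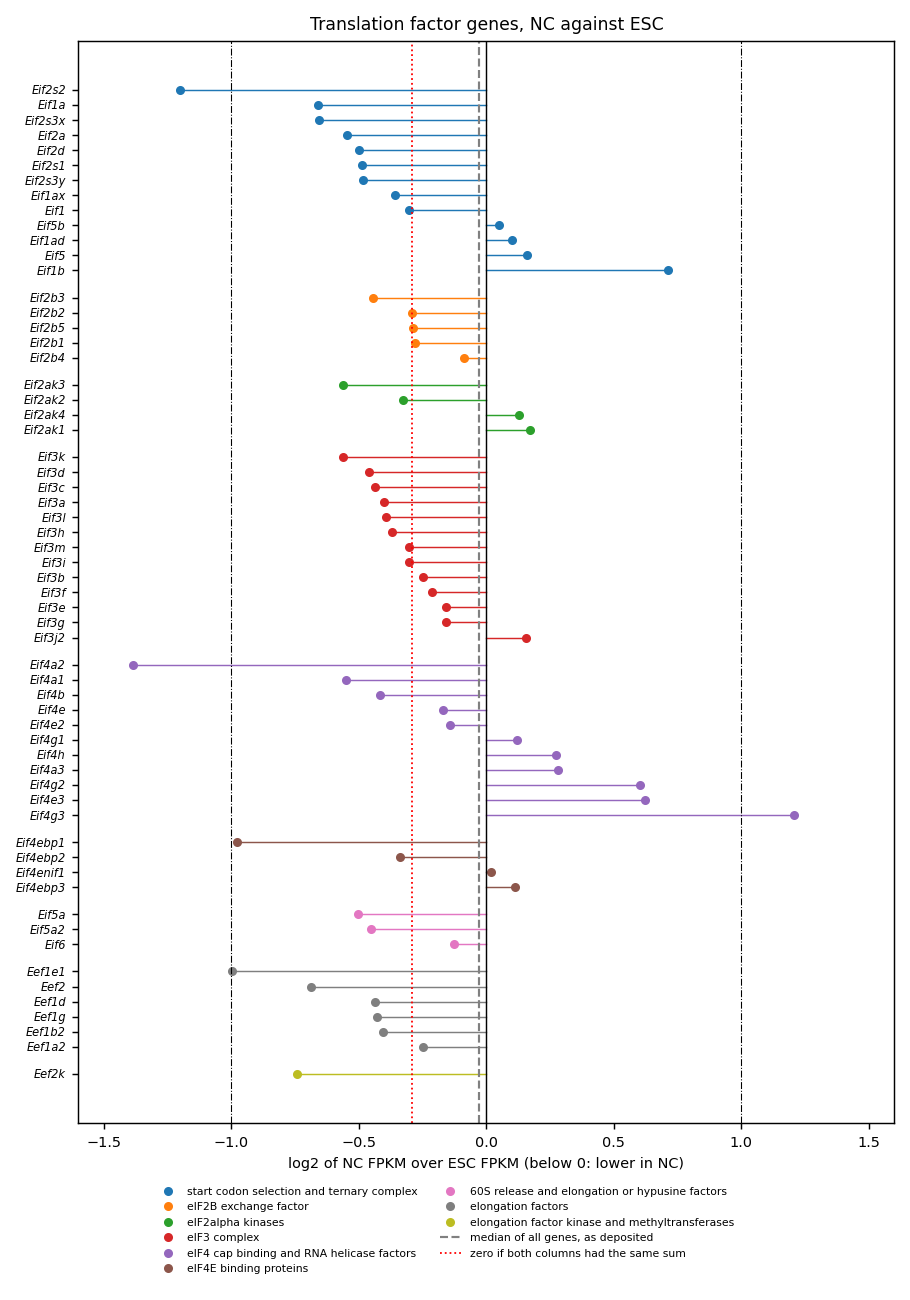
Each point is the log2 ratio of NC to ESC FPKM of 1 of the 60 translation factor genes compared, grouped by role on the vertical axis, with dash-dot lines at 2-fold, a dashed line at the median of all genes and a dotted line where 0 would lie if both columns had the same sum, from 1 pooled value per condition and so without error bars. Eif4a2 (-1.38) and Eif2s2 (-1.20) lie farthest to the lower side and Eif4g3 (1.21) farthest to the higher side, and most points lie between 0 and -0.6.

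The eIF4 group held both the lowest and the highest ratio of the factor genes compared, with 5 genes lower, 6 higher and a median log2 ratio of 0.12 (-0.013 when Eif4e1b, below 1 FPKM, was kept). Eif4a2 (chr16:23107444-23114136, plus strand) had 449.3 FPKM in ESCs and 172.1 in NCs, 2.61-fold lower and the lowest ratio of all factor genes. Its copy Eif4a1 (chr11:69666936-69672423, minus strand) had 1311 and 894.2 FPKM, 1.47-fold lower. The helicase pair was therefore unequal: Eif4a1 stood 2.92-fold above Eif4a2 in ESCs and 5.20-fold above it in NCs. Eif4a3, a related helicase that serves in the exon junction complex and not in cap-dependent scanning, had 124.8 and 151.6 FPKM. The share of Eif4a2 in the FPKM of these 3 genes was 23.8% in ESCs and 14.1% in NCs, while that of Eif4a3 was 6.62% and 12.4%.

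The scaffold proteins of the cap complex lay on the other side. Eif4g3 (chr4:137993022-138208508, plus strand), an eIF4G form that joins cap-binding protein, helicase and eIF3, had 11.0 FPKM in ESCs and 25.5 in NCs, 2.31-fold higher. Eif4g2 (chr7:111067750-111083030, minus strand), which lacks the cap-binding protein's docking site and serves cap-independent initiation, had 133.8 and 203.3 FPKM, 1.52-fold higher. Eif4g1, the main scaffold, had 127.5 and 138.5 FPKM, a log2 ratio of 0.12. Within the 3 genes the share of Eif4g1 was 46.8% in ESCs and 37.7% in NCs, and Eif4g2 held the largest share in both, 49.1% and 55.4%. Under the same-sum scale Eif4g3 and Eif4g2 were higher still, so the direction of all 3 did not depend on the scale.

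Cap-binding proteins were close to level. Eif4e, the cap-binding protein itself, had 87.8 FPKM in ESCs and 78.1 in NCs, and Eif4e2, a form that represses bound mRNAs, had 48.7 and 44.0. Their ratio was 1.80 in ESCs and 1.77 in NCs. Eif4e3, a low form, had 3.31 and 5.10 FPKM, 1.54-fold higher. Eif4b, a cofactor of the helicase, had 330.7 and 247.8 FPKM, whereas Eif4h, a related cofactor, had 184.4 and 223.0.

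Among the proteins that bind and hold back eIF4E, Eif4ebp1 (chr8:27260329-27276674, plus strand) had 293.8 FPKM in ESCs and 149.3 in NCs, 1.97-fold lower and just inside the 2-fold limit. Set against its partner, there were 3.35 FPKM of Eif4ebp1 for each FPKM of Eif4e in ESCs and 1.91 in NCs. Eif4ebp2, which has the same role, had 120.7 and 95.3 FPKM, and its share of the 3 binding-protein genes was 28.6% in ESCs and 37.8% in NCs. Eif4ebp3 stood at 7.22 and 7.81 FPKM, and Eif4enif1, which carries eIF4E into the nucleus, at 40.8 and 41.3. In ESCs and in NCs alike Eif4ebp1 was the highest of these 4 genes.

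**Figure D2:**
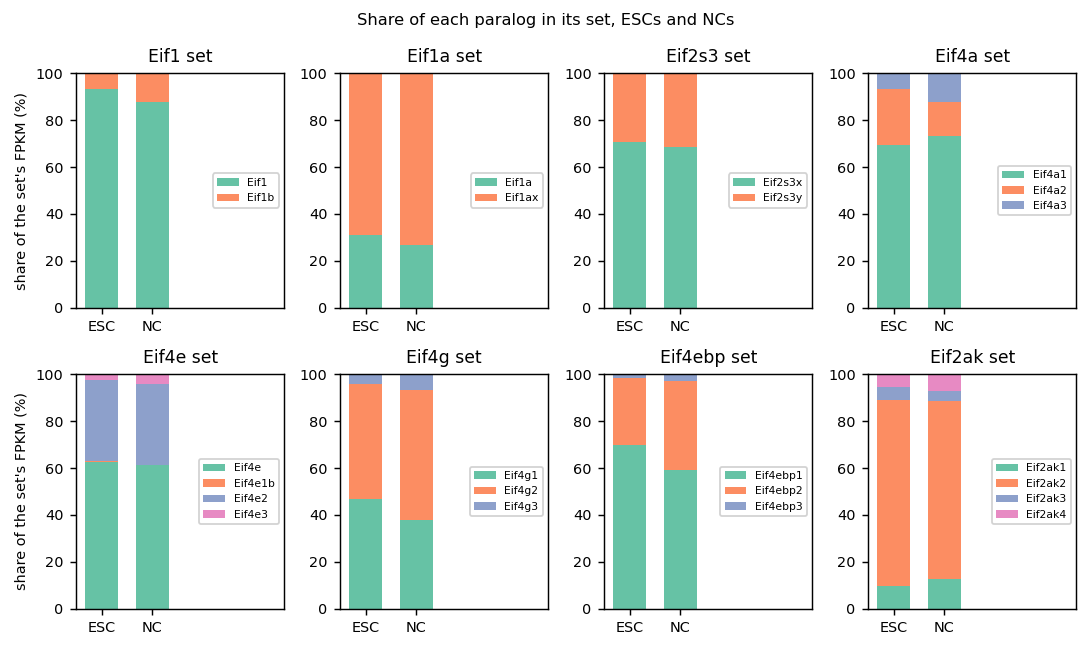
Stacked bars give the percent of each set's summed FPKM held by each paralog, in ESCs and in NCs, from 1 pooled value per condition. The share of Eif4a2 was 23.8% in ESCs and 14.1% in NCs, that of Eif4ebp1 69.7% and 59.1%, and that of Eif1b 6.55% and 12.4%.

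Genes for start codon selection and the ternary complex (eIF2, GTP and initiator tRNA) had a median log2 ratio of -0.48, with 9 of 13 lower. The 3 eIF2 subunits differed among themselves. Eif2s2, the beta subunit (chr2:154871410-154892935, minus strand), had 319.1 FPKM in ESCs and 138.8 in NCs, 2.30-fold lower, a log2 ratio of -1.20 as deposited and -0.91 on the same-sum scale, which is inside 2-fold. Eif2s1, the alpha subunit that carries the regulated phosphorylation site, had 88.3 and 63.0 FPKM, 1.40-fold lower, so the beta to alpha ratio was 3.61 in ESCs and 2.20 in NCs. For Eif2s2, 21.9% of 50-base words were shared with other genes.

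The gamma subunit is encoded on both sex chromosomes in the mouse. Eif2s3x had 130.8 FPKM in ESCs and 83.0 in NCs, 1.58-fold lower, and Eif2s3y had 53.7 and 38.4, 1.40-fold lower. The X form stood 2.44-fold above the Y form in ESCs and 2.16-fold above it in NCs. Their coding sequences shared 86.3% of bases, and 35.4% of 50-base words of Eif2s3x but 0% of those of Eif2s3y occurred in other genes. Both carried a run of 12 C and T bases near the RefSeq start, which spanned the start in Eif2s3x and began just after it in Eif2s3y.

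Start codon factors again contained an unequal pair. Eif1 had 503.6 FPKM in ESCs and 407.7 in NCs, 1.24-fold lower. Eif1b (chr9:120492232-120495330, plus strand) had 35.3 and 57.8 FPKM, 1.64-fold higher. The Eif1 to Eif1b ratio thus was 14.3 in ESCs and 7.05 in NCs, the widest relative difference among the close pairs compared apart from that of Eif4g1 to Eif4g3 (11.6 and 5.44). Eif1a, one of 2 genes for the partner factor eIF1A, had 80.6 and 50.9 FPKM, 1.58-fold lower, and Eif1ax had 180.2 and 140.6, 1.28-fold lower. Eif5, which triggers GTP hydrolysis by eIF2, was at 98.6 and 110.0 FPKM, Eif5b, which joins the subunits, at 28.6 and 29.5, and Eif1ad at 28.4 and 30.4. Eif2a and Eif2d, alternative carriers of initiator tRNA, had 77.4 and 53.0 and then 57.5 and 40.7 FPKM.

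All 5 eIF2B subunit genes were lower as deposited, with log2 ratios from -0.45 (Eif2b3) to -0.09 (Eif2b4). Eif2b5, the catalytic subunit and the highest of them, had 65.4 FPKM in ESCs and 53.6 in NCs. Under the same-sum scale 4 of the 5 turned direction, so only Eif2b3 (44.2 and 32.5 FPKM) was lower on both scales.

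The kinases that phosphorylate eIF2alpha under stress were split, 2 lower and 2 higher. Eif2ak2, which responds to double-stranded RNA, was much the highest, with 137.3 FPKM in ESCs and 109.4 in NCs, or 79.4% and 75.6% of the 4 kinases' FPKM. Eif2ak3, which responds to unfolded protein in the endoplasmic reticulum, had 9.67 and 6.55 FPKM, 1.48-fold lower. Eif2ak1, which responds to heme shortage, had 16.5 and 18.6, and Eif2ak4, which senses amino acid shortage, had 9.36 and 10.2. None of the 4 passed 1.5-fold.

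Genes for the large eIF3 complex stayed close together. Of 13 genes 12 were lower and 1 higher, and the log2 ratios ran from -0.56 to 0.15 with a median of -0.30. Eif3k, the highest (chr7:28971372-28981864, minus strand), had 432.6 FPKM in ESCs and 292.8 in NCs, 1.48-fold lower. Eif3a, the largest scaffold subunit, had 178.7 and 135.2, and Eif3h 356.2 and 275.3. The single higher gene, Eif3j2, had 61.0 and 67.9 FPKM and is the one that shares most of its words with other genes. Its copy Eif3j1 was not among the factor genes listed, so the Eif3j2 value may hold reads of either copy. No eIF3 gene passed 1.5-fold in either direction, and under the same-sum scale Eif3b, Eif3e, Eif3f and Eif3g turned direction.

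The 6 elongation factor genes with an estimate were all lower, with a median log2 ratio of -0.43. Eef2, which moves the ribosome by a codon and was the highest factor gene with an estimate (chr10:81176631-81182498, plus strand), had 2384 FPKM in ESCs and 1478 in NCs, 1.61-fold lower. Eef1g, a subunit of the eEF1B exchange complex, had 1597 and 1185 FPKM, and its partners Eef1b2 (806.1 and 608.5) and Eef1d (242.5 and 178.9) had similar ratios, 1.32- to 1.36-fold lower. Within the exchange complex the 3 subunits thus kept nearly the same proportions. Eef1e1 (chr13:38644207-38659058, minus strand), a small protein of the multi-tRNA synthetase complex, had 106.8 and 53.5 FPKM, 1.99-fold lower and the member nearest below the 2-fold limit. Eef1a2, the form of eEF1A of nerve and muscle, was low in both, at 1.66 and 1.40 FPKM.

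Eef2k, the kinase that inhibits eEF2, had 6.05 FPKM in ESCs and 3.62 in NCs, 1.67-fold lower. Kinase and substrate kept nearly the same ratio, with 394 FPKM of Eef2 for each FPKM of Eef2k in ESCs and 409 in NCs. Eif5a, the hypusine-containing factor that relieves stalled ribosomes, had 1319 and 931.8 FPKM, 1.42-fold lower, and its copy Eif5a2 had 7.17 and 5.25. Eif6, which keeps free 60S subunits apart from 40S, was at 95.6 and 87.5 FPKM. The enzymes that make hypusine were lower as well, Dohh at 62.7 and 38.8 FPKM and Dhps at 29.3 and 22.4.

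**Figure D3:**
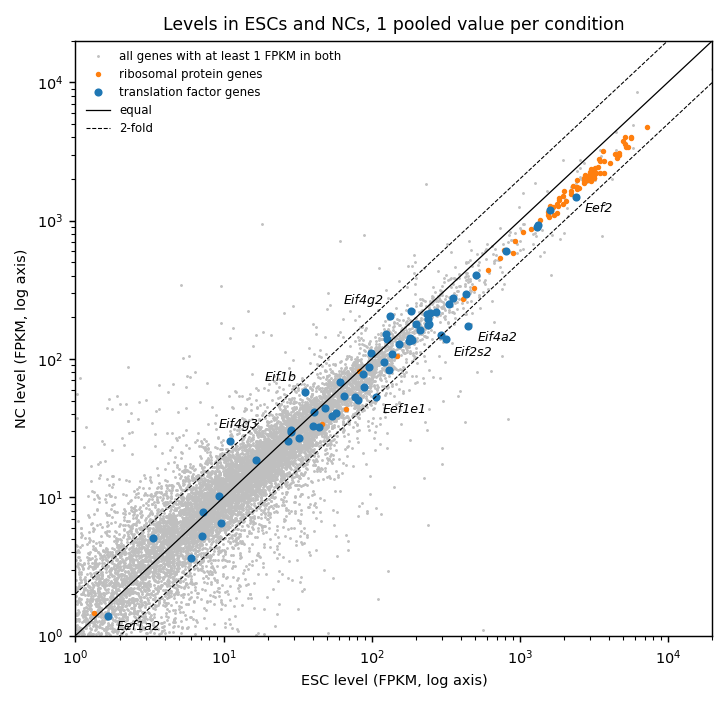
NC FPKM is plotted against ESC FPKM on log axes for the translation factor genes, with ribosomal protein genes in orange and other genes with at least 1 FPKM in both conditions in grey, from 1 pooled value per condition, and dashed lines at 2-fold. The factor genes at 300 FPKM or more lie below the line of equal values, among them Eef2 at 2384 and 1478 FPKM, and Eif4g3 (11.0 and 25.5) lies above it.

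Level and ratio were related over the whole table, and this bears on the factor genes because many of them are abundant. Of genes with a mean of at least 300 FPKM, the median log2 ratio was -0.43 for all 279 genes, -0.31 for the 190 that were neither factor nor ribosomal protein genes, and -0.50 for the 9 factor genes, all 9 of which were lower. Between 100 and 300 FPKM the medians were -0.21 for all genes and -0.33 for 23 factor genes, 18 of them lower. Between 30 and 100 FPKM they were -0.15 and -0.29. The order was the opposite only between 10 and 30 FPKM, with 0.07 for 6 factor genes and -0.03 for all genes. Between 1 and 10 FPKM the medians were -0.25 for 7 factor genes and 0.12 for all genes. The part of abundance in the lower values of the factor genes was not tested.

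Other genes of the translation machinery give the setting. Of 85 cytosolic ribosomal protein genes 84 were lower, with a median log2 ratio of -0.49, 0 past 2-fold in either direction and 18 (21.2%) past 1.5-fold lower, close to the 19.4% of all genes. Their summed share of all FPKM was 28.8% in ESCs and 25.0% in NCs. All 20 cytosolic tRNA synthetase genes were lower, with a median of -0.73, and 7 of them (35%) passed 2-fold, where the background is 10.6%. Cars, which charges cysteine tRNA, had the lowest ratio of them, at 55.1 FPKM in ESCs and 18.9 in NCs, 2.91-fold lower. The others past 2-fold were Sars, Nars, Tars, Mars, Lars and Yars, with log2 ratios from -1.07 to -1.01. On the same-sum scale these others fell inside 2-fold, so only Cars stayed past it, and the list median was -0.43.

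Mitochondrial translation factors had a median log2 ratio of -0.30 (7 of 10 lower), release, recycling and reinitiation factors -0.19 (8 of 11 lower) and poly(A) binding and interacting proteins -0.27 (4 of 6 lower). Pabpc1, which binds the poly(A) tail and the eIF4G scaffold, had 1220 FPKM in ESCs and 799.4 in NCs, and its partner Paip1 had 10.3 and 19.1. Kinases, phosphatase subunits and other modifiers of the factors had a median of -0.34 (8 of 13 lower). Of the kinases of eIF4E, Mknk1 had 9.80 and 7.73 FPKM and Mknk2 33.9 and 50.5. In the mTOR pathway, which controls the eIF4E-binding proteins, 8 of 12 genes were lower with a median of -0.08, and only the inhibitor Deptor passed 2-fold, at 9.02 and 2.08 FPKM.

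The stress factor ATF4 is made when eIF2alpha is phosphorylated, and a list of Atf4 and genes that it activates had a median log2 ratio of -1.24. Of 10 compared, 9 were lower and 7 past 2-fold lower, Atf4 itself among them, where 52.0% and 10.6% are the shares of all genes. Ddit4, an inhibitor of mTOR, had 244.3 FPKM in ESCs and 43.2 in NCs, 5.65-fold lower, and Asns, which makes asparagine, had 157.7 and 69.2. Atf4 itself was at 123.2 and 54.8 FPKM. Chac1 (6.60 and 1.25 FPKM), Trib3 (12.4 and 2.52), Ddit3 (40.8 and 15.4) and Psat1 (185.8 and 75.5) were the others past 2-fold. Atf3 went the other way, at 1.73 and 6.52. On the same-sum scale Atf4 and Asns fell inside 2-fold, and the list median was -0.95. Protein phosphorylation and translation rate were not measured.

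**Figure D4:**
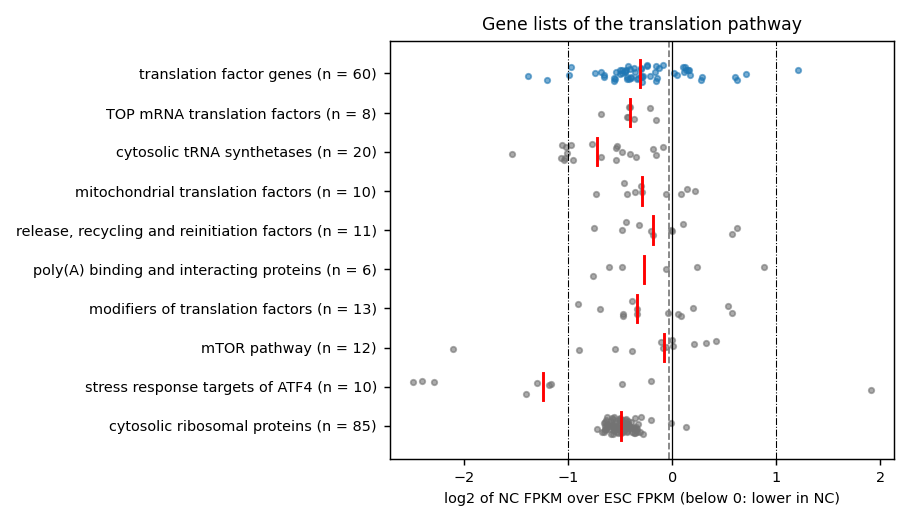
Log2 ratios of NC to ESC FPKM are shown for single genes (points) and their median (red bar) in the translation factor genes and 9 comparison lists, from 1 pooled value per condition, with dash-dot lines at 2-fold and a dashed line at the median of all genes. Medians ran from -0.08 for the mTOR pathway to -1.24 for the ATF4 targets, with -0.49 for ribosomal proteins and -0.73 for tRNA synthetases.

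A run of C and T at the 5′ end of the mRNA, beginning with C, marks the TOP mRNAs, whose translation depends on mTOR and which include ribosomal proteins and several factors. All 8 of the 9 listed TOP factor genes with an estimate were lower, with a median log2 ratio of -0.41 (-0.12 on the same-sum scale). These genes were abundant, at 238 to 2384 FPKM in ESCs. Of all genes with a mean of at least 300 FPKM, 82.8% were lower, with a median of -0.43. Between 100 and 300 FPKM 70.6% were lower, with a median of -0.21. The part of abundance in the TOP values was not tested. Windows from 10 bases before to 20 after the RefSeq start (GRCm38.p6) are shown for the 5 of the 9 that had an entry, and for the X and Y forms of eIF2 gamma because the pair can be compared. Capitals mark the longest run of at least 5 C or T that begins with C.
Eef1a1, chr9:78481705-78481734, minus strand: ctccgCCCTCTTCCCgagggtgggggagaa
Eef1b2, chr1:63176821-63176850, plus strand: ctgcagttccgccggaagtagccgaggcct
Eef2, chr10:81176621-81176650, plus strand: aaggccgggcgttgacgtcagcggtCTCTT
Eif4b, chr15:102073763-102073792, plus strand: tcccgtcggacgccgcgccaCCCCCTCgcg
Eif3f, chr7:108934405-108934434, plus strand: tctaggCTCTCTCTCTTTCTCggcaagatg
Eif2s3x, chrX:94212632-94212661, minus strand: gagcattttCCTTTTCTCTCCgagcaagat
Eif2s3y, chrY:1010585-1010614, plus strand: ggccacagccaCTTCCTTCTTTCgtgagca

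Of these 5 TOP genes 4 held such a run somewhere in the window, but only those of Eef1a1 and Eif3f spanned the annotated start, while those of Eif4b and Eef2 began inside the transcript. A run anywhere in the window was found in 20 of the 48 factor genes with a promoter entry (41.7%), in 45 of 65 ribosomal protein genes (69.2%) and in 39.6% of all 27025 promoters. The share among the factor genes was thus close to that of all promoters. A single annotated start stands for each gene, so other starts were not searched.

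In the stretch from 250 bases before to 50 after the start, CACGTG and TGATGNAA were counted on both strands. CACGTG, the E-box bound by MYC and related factors, was in 12 of 48 factor promoters (25%), in 6 of 65 ribosomal protein promoters and in 8.09% of all promoters. For this and the other patterns, all promoters were taken without the FPKM filter, so genes not expressed in these cells are among them. Of the 12 genes, 9 were lower in NCs (Eef2, Eef2k, Eif3a, Eif3f, Eif3k, Eif4a1, Eif4e, Eif5a and Eif5a2) and 3 higher (Eif1b, Eif4g1 and Eif4h). Both directions were thus represented, and the share lower was the same as the 75% among all 60 factor genes compared. Among all genes 52.0% were lower. On the same-sum scale Eif3f and Eif4e turned direction. Windows of 30 bases around it are shown for 3 lower genes of high level and for the 3 higher genes, with the hexamer in capitals.
Eef2, chr10:81176576-81176605, plus strand: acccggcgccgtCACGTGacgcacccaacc
Eif4a1, chr11:69672595-69672624, minus strand: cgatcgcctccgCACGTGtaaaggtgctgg
Eif5a, chr11:69921443-69921472, minus strand: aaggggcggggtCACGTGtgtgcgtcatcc
Eif1b, chr9:120492570-120492599, plus strand: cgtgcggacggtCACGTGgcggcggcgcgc
Eif4g1, chr16:20672661-20672690, plus strand: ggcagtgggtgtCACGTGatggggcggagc
Eif4h, chr5:134639488-134639517, minus strand: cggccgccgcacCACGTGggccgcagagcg

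TGATGNAA, the element bound by ATF4 with its partners, was in 2 of 48 factor promoters (Eef2k and Eif2s3x), in 4.51% of all promoters, in 5 of 12 tRNA synthetase promoters (41.7%) and in 6 of 12 ATF4 target promoters (50%). The factor genes were thus near the share of all promoters for this pattern. A match describes letters in a window and not binding, which was not measured.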

How the data were processed

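RNA of 3 ESC and 3 NC samples was sequenced, and the labels state that replicates were processed separately. Per the submitters' processing notes, TopHat2 2.0.8 with Bowtie2 2.1.0, Cufflinks 2.0.2 and Cuffdiff (version not given in the sources used here) were run on mm10. The authors deposited 1 FPKM value per gene and condition, pooled over the 3 samples (the NC heading reads FPK and was taken as FPKM), with a status code and their own comparison columns (log2 fold change, test statistic, p-value, q-value and significance call), which were not used. FPKM is scaled by transcript length and by sequenced fragments, so it hides depth, which is unknown here, and reads shared by copies are split by a model. Library strand is not given in the sources used here, so overlapping antisense genes cannot be told apart.

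Ratios of NC to ESC were taken without pseudocount where FPKM was at least 1 in either condition, and 2-fold was the limit for a call. A limma fit was planned had values per sample been present. With pooled values no test, error or n is given. Factor genes past 1.5-fold, the highest of each role group and paralogs were named, and others mostly by counts. Eif2a, Eif2d, Eif2s1, Eif3a, Eif3h, Eif2b3, Eif2b4, Eif4b, Eif4h, Eif4enif1, Eif5, Eif5b, Eif1ad, Eef1b2, Eef1g, Eef1d and Eif6 were added outside this rule after their values were seen. The genes and lists were chosen with earlier results of these data known. Alternatives covered the fold limit, pseudocounts of 0.1 and 1, 3 other filters and 3 rescalings. Gene positions and 50-base words came from GENCODE M21 on GRCm38, the assembly of mm10, and promoters from RefSeq on GRCm38.p6 (48 of 62 genes matched). Only the 2-fold counts and the median centring were tested on simulated data, with planted changes. Calculations used python 3.11.15, pandas 2.3.3, numpy 2.4.6, biopython 1.88 and matplotlib 3.10.9.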

Additional observations from a re-analysis of the deposited data

How the results depend on the processing

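With 1 pooled FPKM value per condition, neither spread between samples nor depth can be read. From these values alone, small differences in FPKM therefore cannot be told from sampling error. The authors' own test columns address that question per gene and were not used here. Leaving out a replicate was not run. No paired analysis was possible because the columns carry no replicate numbers. Values counted as moved when they shifted by over 0.1 on the log2 scale, and counts when they changed by over 1.5 times. With a limit of 1.5-fold, 4 factor genes were higher and 8 lower. A pseudocount of 1 gave Eef2k, alone in its group, a log2 ratio of -0.61, and keeping every gene above 0 in both conditions gave the eIF4 group a median of -0.013. Bringing both columns to the same sum added 0.29 to every log2 ratio by construction. Past 2-fold, 2 factor genes were then higher (Eif4g3 and Eif1b) and 1 lower (Eif4a2, with Eif2s2 at -0.91 no longer past it), 4 were past 1.5-fold in each direction, and the medians were -0.022 for all factor genes and 0.26 for all genes. By role they were -0.19 for start codon selection, 0.0048 for eIF2B, 0.19 for eIF2alpha kinases, -0.011 for eIF3, 0.41 for eIF4, 0.13 for eIF4E-binding proteins, -0.16 for 60S and hypusine factors, -0.14 for elongation factors and -0.45 for Eef2k. By list they were -0.12 for TOP factors, -0.43 for tRNA synthetases, -0.0030 for mitochondrial factors, 0.11 for release factors, 0.019 for poly(A) binding, -0.048 for modifiers, 0.22 for mTOR, -0.95 for ATF4 targets and -0.20 for ribosomal proteins. All 30 named genes tabulated moved on that scale, 2 moved with a pseudocount of 1, and 0 of those past 2-fold turned direction. Centring on the median gene, the upper-quartile scale, a pseudocount of 0.1 and filters of 1 FPKM in both or 5 in either condition moved none of these counts and medians.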

Other observations

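Several factor genes hold small nucleolar RNA (snoRNA) genes within their bounds, and the table lists these under their own names. Of 7 snoRNA genes inside factor genes, 5 were above 0 in both conditions. Snord37 in Eef2 had 6145 FPKM in ESCs and 8479 in NCs, a log2 ratio of 0.46 beside -0.69 for its host. Snora41 in Eef1b2 had 133 and 157 FPKM (0.24, host -0.41). Snord2 and Snora81 in Eif4a2 were lower with their host, at 962 and 587 and at 95.2 and 63.1 FPKM, with log2 ratios of -0.71 and -0.59 beside -1.38. Snora28 in Eif5 had 227 and 157 FPKM (-0.53, host 0.16). These genes are 64 to 178 bases long, and FPKM of genes this short depends on the fragment length that the authors' software assumed. For Snord2, Snora81 and Snora28 the bases also lie in annotated exons of the host.

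On the opposite strand, 11 factor genes were overlapped by another listed gene, 9 of them with shared exon bases. Eif5b and Rev1 shared 1643 exon bases, Eif1ad and Banf1 428, and Eif4a2 and Rfc4 194. Rfc4, a subunit of the clamp loader, had 66.7 FPKM in ESCs and 71.8 in NCs beside 449.3 and 172.1 for Eif4a2. The part of such overlaps in the values was not tested.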
